A study of Bos taurus with 20 samples.

Results

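Metalloproteinases are zinc-dependent enzymes that cut extracellular matrix and cell surface proteins. The genes described here were chosen by symbol from the deposited gene table, as all matrix metalloproteinases (MMP, 20 genes), all ADAM proteins (18 genes), all ADAMTS proteins (19 genes), all ADAMTS-like proteins (ADAMTSL, 5 genes), the tissue inhibitors TIMP1 to TIMP4 together with RECK (5 genes), and MMP24OS, a gene named for its place opposite MMP24 that is not itself a metalloproteinase. They make 68 of the 33063 named genes in the table.

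The MMPs degrade collagens, gelatins and other matrix components, and their membrane-anchored members also activate other MMPs. ADAMs are membrane proteins, several of which release growth factors, cytokines and receptors from the cell surface, whereas ADAMTS enzymes are secreted and process procollagens, proteoglycans and microfibrils, and ADAMTSL proteins resemble them without the catalytic domain. TIMPs and the membrane-anchored RECK hold these enzymes in check. Matrix remodelling by these proteins accompanies fat tissue growth, since a precursor cell leaves a fibrillar collagen matrix for a basement membrane as it becomes an adipocyte.

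Levels were measured by RNA sequencing in 20 clones of bovine mesenchymal stem cells (MSCs), each grown from 1 sorted cell in medium with serum and bFGF. The clones came from visceral fat of Holstein Friesian x Aberdeen Angus calves a few months old. The 10 adipogenic (A) clones had produced adipocytes when induced and were those with the highest differentiation, and the 10 non-adipogenic (N) clones had failed to do so. All 20 were sequenced undifferentiated and none carried a transgene or deletion, so the comparison asks which of these genes differ with adipogenic capacity before induction. The authors report that growth was faster in N clones, which were confluent sooner, and that A clones had larger and flatter cells. Growth, time in culture and cell shape therefore cannot be told apart from adipogenic capacity in this comparison. Animals 17 and 20 gave 1 A and 1 N clone each and animals 22 and 23 gave 4 of each, so 16 of the clones came from 2 animals. The p-values measure the spread between clones, and each library is a single culture of a clone.

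Sequencing depth, as total counts on named genes, lay between 14615493 and 29185355 in A clones (median 16112862) and between 14908802 and 43111345 in N clones (median 16316703.5). All 11 mesenchymal markers listed, among them PDGFRA, THY1 and COL1A1, were detected and none differed between groups at an adjusted p of 0.05. Single clones were low for some of them. In N clone 22-5, THY1 was at 0.395 CPM, the counts scaled to a common library total, against an N median of 50.1. NT5E was at 0.508 CPM there, against 83.2. A clone 17-57 had 29.4 CPM of LUM and 36.2 CPM of PDGFRA, against A medians of 759 and 151. In animal 22, 2 of the N clones, 22-5 and 22-9, stood apart with 84633 and 45433 counts of the epithelial and mesothelial keratin KRT8. Summed mesothelial markers ranged from 7.73 to 1095 CPM in A clones and from 8.82 to 9198 CPM in N clones, and 1 of 6 tested, MSLN, was lower in A clones. None of the others tested was called. KRT8 and KRT19 had positive log2 differences with wide standard errors (0.72 ± 3.26 and 1.16 ± 2.96), although their means were lower in A clones. KRT8 averaged 121 CPM in A and 751 CPM in N clones, and KRT19 53.4 and 407 CPM. UPK3B, KRT18 and WT1 had negative log2 differences. Smooth muscle and pericyte markers summed to between 936 and 9039 CPM in A clones (median 3590) and between 129 and 6213 CPM in N clones (median 1703), with MYH11 and CSPG4 higher in A clones among 6 tested. Endothelial markers summed to at most 70.1 CPM, and leukocyte markers to at most 11.4 CPM, of which CD68, the only 1 tested, was higher in A clones. Mature adipocyte markers summed to at most 122 CPM, and of 4 tested PLIN1 was higher in A clones. The others were not called, with positive log2 differences for FABP4 and LPL (0.94 and 1.93) and a negative one for CIDEC (-0.64). No marker on these lists was at 0 in every clone. The part of these cell type markers in the results below was not tested, beyond the fits without clones 22-5 and 22-9. In a bulk library, fewer expressing cells and less RNA per cell cannot be told apart.

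Of the 68 genes, 63 had at least 1 count. ADAM2, ADAM7, ADAM18, ADAM21 and ADAM29, most of them known from the testis or epididymis, had 0 counts in all 20 clones, which allows up to between 0.0764 and 0.216 CPM in a single clone (3 counts, counting error only). A filter on low counts left 41 genes for the test. TIMP1, TIMP2, TIMP3 and MMP2 together held between 66.1% and 87.3% of the counts of all 68 genes in each clone. The 68 genes took between 0.732% and 1.9% of a clone's counts in A clones (median 1.25%) and between 0.672% and 1.18% in N clones (median 0.84%).

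In A clones ADAMTS14, TIMP3, TIMP1, MMP15 and ADAMTS4 were higher, and ADAMTS15 and ADAM33 were lower. These 7 of 41 genes tested (17.1%) passed an adjusted p of 0.05, against 20.6% of all 12900 genes tested. The 5 higher genes compare with 10.3% of all genes called higher, and the 2 lower ones with 10.3% called lower. With a change of at least 2-fold also required, 5 genes or 12.2% passed (ADAMTS14, TIMP3 and MMP15 higher, ADAMTS15 and ADAM33 lower), against 5.76% of all genes (3.95% higher and 1.81% lower). The median log2 fold change was 0.29 over the 41 genes and -0.01 over all genes tested, and 29 of the 41 were positive. No gene of the families separated the groups completely, which 0.318% of all genes tested did. Without the 8 clones of animal 23 the number called was 0, with 8 genes at an unadjusted p under 0.05, and 32 of all genes tested were then called.

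**Figure D1:**
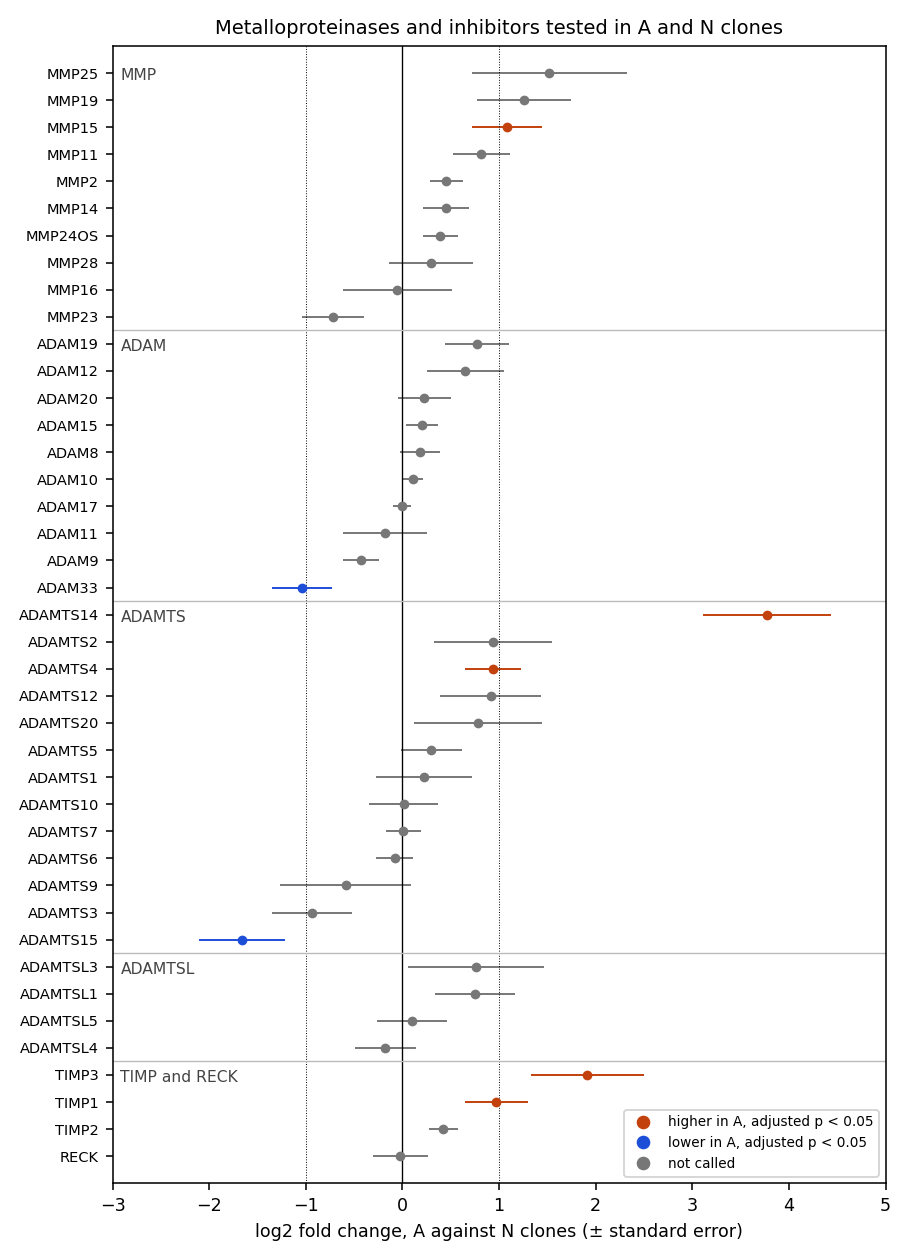
Log2 fold change of each of the 41 tested genes (A against N clones, n = 10 each), with bars for the standard error and dotted lines at 2-fold. Points are grouped by family and coloured by the adjusted p; ADAMTS14 at 3.77 lies farthest to the right and ADAMTS15 at -1.66 farthest to the left.

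TIMP1, TIMP2 and TIMP3 were among the most heavily counted of these genes, RECK and TIMP4 were low, and 2 of the 4 inhibitors tested, TIMP3 and TIMP1, were higher in A clones. Of all genes tested, 10.3% were called higher. The summed CPM of the 5 inhibitors ranged from 2729 to 11686 in A clones (median 5716) and from 1600 to 6946 in N clones (median 2077). TIMP3, which binds to the matrix and inhibits ADAM17 and the proteoglycan-cutting ADAMTS enzymes as well as MMPs, had a lowest, median and highest level of 641, 1962 and 5073 CPM in A clones and of 65.7, 464 and 2749 CPM in N clones. The groups overlapped, with 2 A clones above every N clone and all 10 A clones above the N median. The means were 2344 ± 1434 CPM in A and 685 ± 784 CPM in N (SD, n = 10), a log2 fold change of 1.92 ± 0.58 (SE, adjusted p = 0.0289), or 3.77-fold. The difference was positive in all 4 animals. The call was lost without A clone 17-57 or 23-14 or N clone 17-23 or 23-23 (adjusted p from 0.0515 to 0.0558).

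TIMP1, a secreted inhibitor of most MMPs, had a lowest, median and highest level of 1751, 2743 and 9692 CPM in A clones against 924, 1274 and 3538 CPM in N clones. The groups overlapped and 3 A clones exceeded every N clone. Means were 3604 ± 2389 CPM and 1699 ± 878 CPM, a log2 fold change of 0.97 ± 0.33 (adjusted p = 0.0437). The difference was positive in all 4 animals but small in animal 22, where it was 0.20 in mean log2 CPM against 2.39, 3.06 and 0.99 in animals 17, 20 and 23. This call was lost in 13 of the 20 fits that left out 1 clone, with adjusted p from 0.0505 to 0.0903 (without A clone 17-57, 20-106, 22-11, 22-27, 23-14 or 23-68, or N clone 17-23, 20-15, 22-5, 22-9, 23-10, 23-22 or 23-74), and without 22-5 and 22-9 together the adjusted p was 0.10. It was also lost without the filter on low counts (adjusted p = 0.0607).

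TIMP2, which inhibits MMPs and also takes part in the activation of MMP2 by MMP14, had a lowest, median and highest level of 316, 472 and 652 CPM in A clones and of 218, 343 and 633 CPM in N clones. The ranges overlapped broadly, and the log2 difference of 0.42 ± 0.15 did not pass (adjusted p = 0.0575), although it passed with DESeq2 and the block (adjusted p = 0.0249), with limma-voom (0.0362) and among genes with at least 10 counts in every clone (0.0451). It also passed when N clone 22-18 or 23-10 or A clone 23-108 was left out (adjusted p from 0.0174 to 0.0499). RECK had levels of 9.69, 17.7 and 20.0 CPM in A clones and of 5.20, 18.9 and 31.2 CPM in N clones. Its log2 difference was -0.02 ± 0.29 (adjusted p = 0.962), with a sign that turned under several alternatives. The clones within a group differed more for RECK among N clones, with an SD of 0.93 in log2 CPM, than among A clones, with 0.30, a contrast given without a test.

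TIMP4, the inhibitor best known from heart and fat tissue, was too low to be tested. It had counts in 10 A clones and 7 N clones, with 0.327, 1.23 and 4.09 CPM as lowest, median and highest in A and 0, 0.0616 and 0.611 CPM in N. The highest count was 60, in A clone 17-57. Without the filter on low counts its log2 fold change was 3.45 ± 0.56 (adjusted p = 0.00129). The TIMP4 gene overlaps SYN2, a synapsin gene, in the RefSeq annotation, as TIMP1 does SYN1 and TIMP3 does SYN3. SYN2 had 26 to 160 counts in A clones and 0 to 114 in N clones and was also higher in A clones, by 3.50 ± 0.66 on the log2 scale (adjusted p = 0.00291). The overlap is one of gene spans, reads were counted within exons, and the strand setting of the counting is not given in the sources used here. Whether TIMP4 and SYN2 shared reads was not tested. For TIMP1 and TIMP3 the overlapping gene was minor, with 28 to 645 counts of SYN1 against 16975 to 197708 of TIMP1, and 4 to 289 counts of SYN3 against 1352 to 108009 of TIMP3. The log2 difference of SYN1 was 0.83 (adjusted p = 0.133), and that of SYN3 was -0.99 (adjusted p = 0.321).

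**Figure D2:**
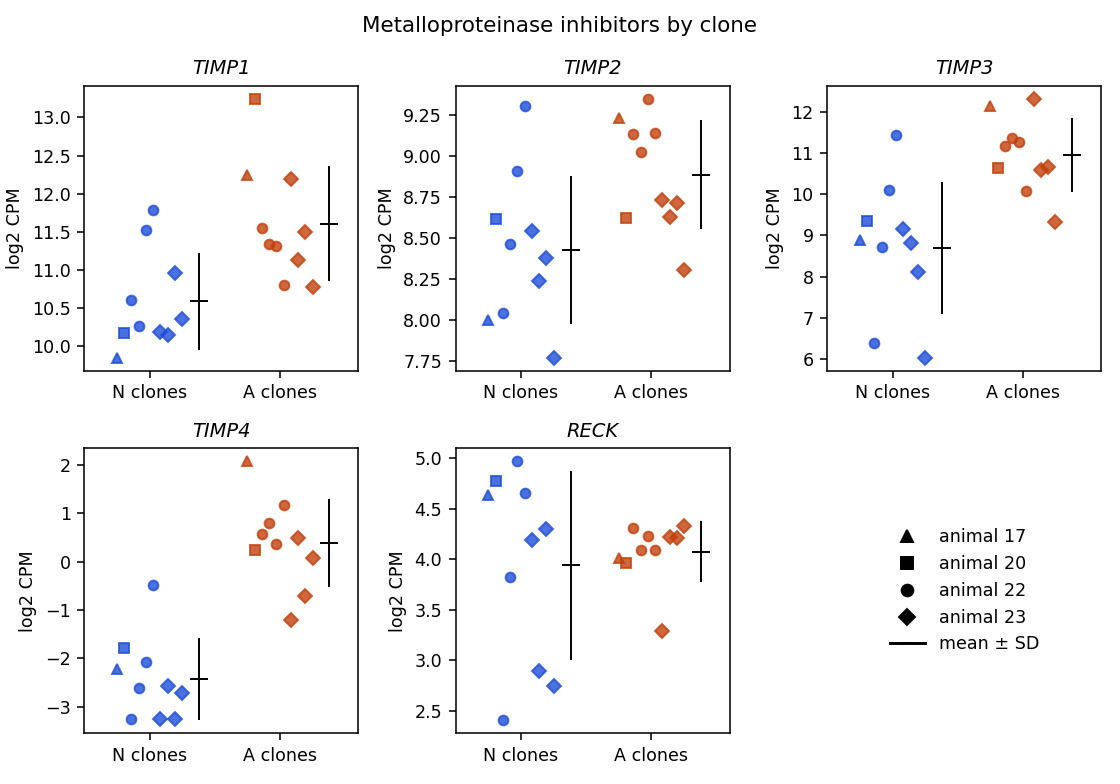
Log2 CPM of the 5 inhibitors in each clone, N clones left and A clones right, with marker shapes for the animal and the mean ± SD beside each group. TIMP3 and TIMP1 are shifted upward in A clones, TIMP4 is at or near the lowest measurable level in N clones, and the RECK values of A clones lie within those of N clones.

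Among the ADAMTS enzymes 2 of 13 tested were higher and 1 was lower in A clones, where 10.3% of all genes tested were called in each direction. ADAMTS14, which removes the amino-terminal propeptide of fibrillar procollagens, had a lowest, median and highest level of 0, 11.4 and 42.6 CPM in A clones and of 0.0509, 0.70 and 3.05 CPM in N clones. In 8 A clones the level exceeded that of every N clone, and A clone 17-57 had 0 counts. Means were 14.2 ± 12.7 CPM in A and 0.995 ± 1.04 CPM in N, a log2 fold change of 3.77 ± 0.66 (adjusted p = 0.00197), or 13.7-fold. The difference in mean log2 CPM was 4.57, 4.24 and 3.22 in animals 20, 22 and 23 and -0.61 in animal 17. The call was kept in all 20 fits that left out 1 clone.

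The related procollagen N-proteinases did not share this difference at the threshold. ADAMTS2 ranged from 37.9 to 177 CPM in A clones and from 0.903 to 135 CPM in N clones, with a log2 difference of 0.94 ± 0.61 (adjusted p = 0.281). ADAMTS3 ranged from 0.885 to 21.8 CPM in A clones and from 4.94 to 50.1 CPM in N clones, with a log2 difference of -0.94 ± 0.42 (adjusted p = 0.116). These 3 genes were chosen for side-by-side description by their shared activity after values were seen, and the difference between them was not tested.

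ADAMTS4, an aggrecanase that cuts aggrecan and versican, had levels of 4.72, 10.2 and 14.8 CPM as lowest, median and highest in A clones and of 1.02, 5.87 and 15.1 CPM in N clones. No A clone exceeded every N clone, and 9 of 10 lay above the N median. The log2 fold change was 0.94 ± 0.29 (adjusted p = 0.0314), and without animal as a block it was 0.73 (adjusted p = 0.144). The call was lost without A clone 22-27 or 23-14 or N clone 22-9, 23-22 or 23-23 (adjusted p from 0.0503 to 0.0605), and without 22-5 and 22-9 together (adjusted p = 0.0618).

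ADAMTS15, another enzyme that cuts aggrecan and versican, went the other way. Its lowest, median and highest levels were 4.20, 15.4 and 46.5 CPM in A clones and 8.86, 67.8 and 155.6 CPM in N clones. The groups overlapped, but 3 A clones lay below every N clone, 6 N clones lay above every A clone, and all 10 A clones were below the N median. Means were 20.3 ± 15.2 CPM and 68.9 ± 47.9 CPM, a log2 fold change of -1.66 ± 0.45 (adjusted p = 0.0169), or 3.15-fold higher in N. The sign was negative in all 4 animals, from -1.26 to -2.30 in mean log2 CPM. The call was kept when any 1 clone was left out, but without 22-5 and 22-9 together the log2 fold change was -1.28 (adjusted p = 0.0895).

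The other 10 ADAMTS genes tested did not pass. ADAMTS1 and ADAMTS5, neighbouring genes that also encode versican- and aggrecan-cutting enzymes, had log2 differences of 0.22 ± 0.50 and 0.30 ± 0.31. ADAMTS9 was at 0 in N clone 20-15 and reached 233 CPM in N clone 23-10, so its log2 difference of -0.59 carried an SE of 0.68. ADAMTS12, which cuts cartilage oligomeric matrix protein, was at 0.91 ± 0.53, and ADAMTS7, which cuts the same protein, at 0.01 ± 0.18. ADAMTS6 and ADAMTS10, linked to fibrillin microfibrils, were at -0.08 ± 0.19 and 0.02 ± 0.36, and ADAMTS20 at 0.78 ± 0.66. Among the 4 ADAMTSL genes tested none passed, with log2 differences from -0.18 for ADAMTSL4 to 0.76 for ADAMTSL3. ADAMTSL1 varied from 60.9 to 883 CPM in A clones and from 15.6 to 312 CPM in N clones, with its highest level in clone 20-106.

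**Figure D3:**
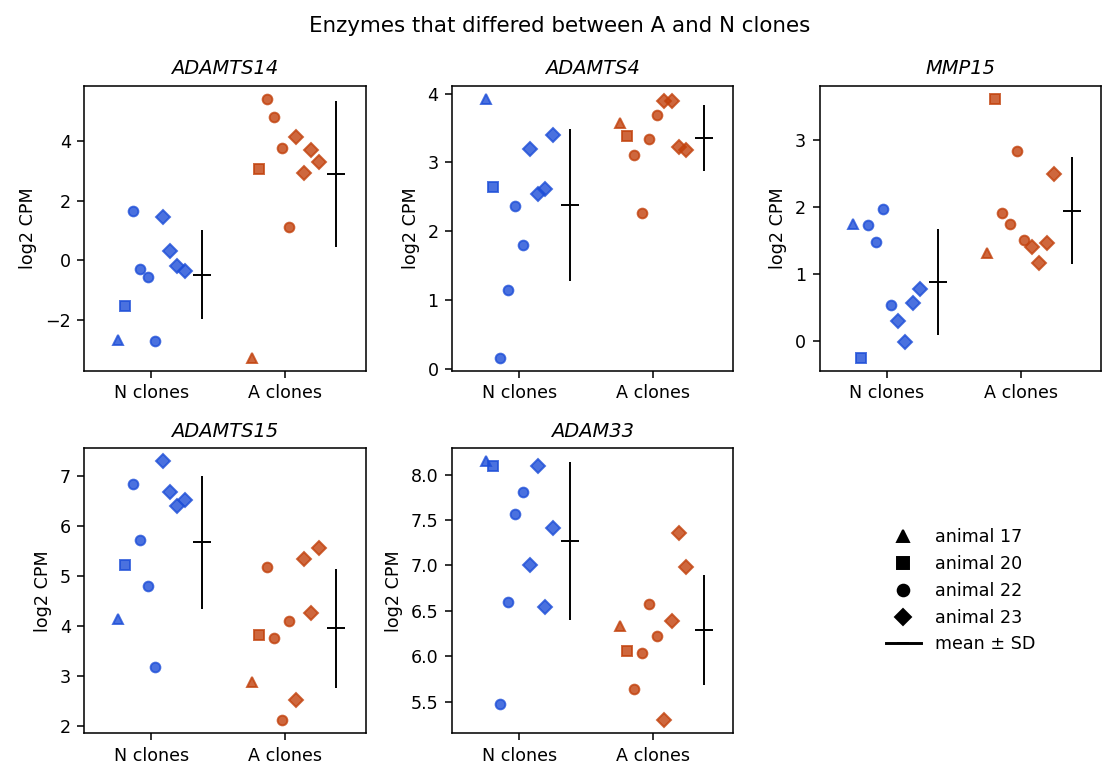
Log2 CPM of the 5 enzymes that passed the test, in each clone, N clones left and A clones right, with marker shapes for the animal and the mean ± SD beside each group. ADAMTS14, ADAMTS4 and MMP15 are higher and ADAMTS15 and ADAM33 lower in A clones, and the groups overlap in each panel.

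Of the 9 MMPs tested, MMP15 alone passed. MMP15, a membrane-anchored MMP, was a low gene with lowest, median and highest levels of 2.14, 3.01 and 12.2 CPM in A clones and of 0.737, 1.49 and 3.81 CPM in N clones. The groups overlapped, with 3 A clones above every N clone and all 10 above the N median. The log2 fold change was 1.08 ± 0.36 (adjusted p = 0.0421), with a difference of 3.87 in animal 20 and of -0.44 in animal 17. The call was lost in 12 of the 20 fits that left out 1 clone, with adjusted p from 0.0546 to 0.0878 (without A clone 20-106, 22-27, 23-14, 23-68 or 23-108, or N clone 20-15, 22-9, 22-18, 23-10, 23-22, 23-23 or 23-74), and without 22-5 and 22-9 together (adjusted p = 0.0593). It was also lost without the filter on low counts (adjusted p = 0.0564).

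MMP2, the gelatinase that mesenchymal cells secrete in large amounts, dominated the counts of the MMP family. Its lowest, median and highest levels were 2065, 4839 and 7493 CPM in A clones and 2671, 3157 and 4925 CPM in N clones. The groups overlapped, with 5 A clones above every N clone and 1 below all of them. The log2 difference was 0.46 ± 0.17 and missed the threshold (adjusted p = 0.0684). It passed with DESeq2 (adjusted p = 0.0304 with the block and 0.0408 without) and without A clone 17-57 or 23-108 or N clone 17-23 (adjusted p from 0.0332 to 0.0334). MMP14, the membrane-anchored collagenase that activates MMP2, had levels of 161, 543 and 924 CPM in A clones and of 210, 317 and 577 CPM in N clones. Its log2 difference was 0.45 ± 0.24 (adjusted p = 0.186), and without the clones of animal 22 it was -0.05. Summed over the 20 MMP genes, levels ran from 2409 to 8394 CPM in A clones (median 5586) and from 3126 to 5554 CPM in N clones (median 3698).

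The remaining 6 tested MMPs did not pass. MMP19 ranged from 7.99 to 62.5 CPM in A clones and from 2.18 to 48.4 CPM in N clones (log2 difference 1.26 ± 0.48, adjusted p = 0.0729), and MMP11, a stromelysin made by stromal cells, was at 0.82 ± 0.30 (adjusted p = 0.0588). MMP25, a lipid-anchored MMP, had the largest difference among the genes that did not pass, 1.52 ± 0.80 (adjusted p = 0.180). MMP23 was negative at -0.72 ± 0.32 (adjusted p = 0.115). MMP28 was at 0.29 ± 0.44 and MMP16 at -0.05 ± 0.57, the latter with 0 counts in A clone 17-57. MMP24OS, which overlaps MMP24, was at 0.39 ± 0.18 (adjusted p = 0.134).

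A run of 8 MMP genes lies together in the RefSeq gene order of a later cattle assembly, in the sequence MMP13, MMP12, MMP3, MMP1, MMP8, MMP27, MMP20 and MMP7, with 2 other genes between MMP1 and MMP8. All 8 fell below the filter, and most counts of MMP1, MMP12, MMP13 and MMP7 came from a few clones. MMP1, an interstitial collagenase, had 265, 232 and 153 counts in A clones 23-14, 23-68 and 23-62, and at most 1.02 CPM in N clones. MMP13, another collagenase, was found in 6 A clones and in none of the N clones. Against a floor of 3 counts per N library, or 0.16 CPM on average, its mean of 1.29 CPM in A clones was at least 8.04-fold higher, but 133 of its 185 counts came from clone 23-68 and 41 from clone 22-27. MMP12, known as macrophage elastase, had 174 counts in A clone 20-106 and 38 in A clone 17-57. Different clones carried the highest counts of MMP1, MMP12 and MMP13.

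MMP7, a matrilysin made by epithelia, showed another pattern within this run of genes. Its highest counts were 112 and 68, in N clones 22-5 and 22-9, the 2 clones with the most KRT8. The next 4 clones in MMP7 were A clones, with 20 counts in 22-11, 19 in 23-108, 9 in 22-16 and 7 in 23-62, which had 16197, 32, 7085 and 2593 counts of KRT8. MMP7 was at 0 in the other 8 N clones. MMP3 had at most 14 counts, MMP20 at most 13, MMP27 at most 8 and MMP8 a single count in 1 clone.

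**Figure D4:**
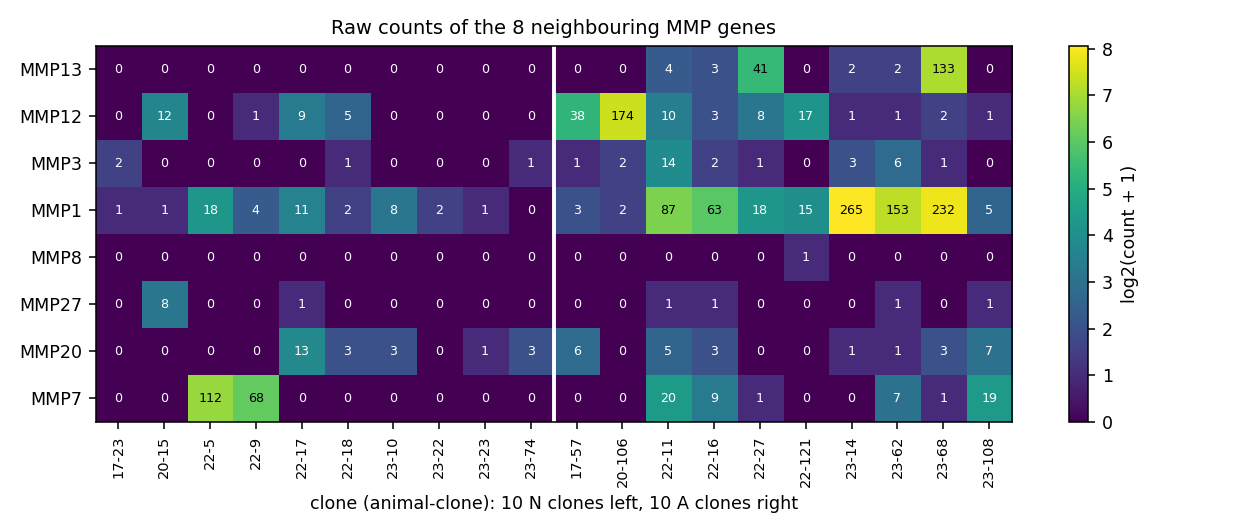
Raw counts of the 8 neighbouring MMP genes in each clone, N clones left of the white line and A clones right, coloured by log2 of the count plus 1. MMP1 is highest in A clones 23-14, 23-68 and 23-62, MMP12 in A clone 20-106, MMP13 in A clone 23-68 and MMP7 in N clones 22-5 and 22-9.

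In all, 22 detected genes fell below the filter. When they were fitted without it, 6 of the 22 (27.3%) were called and each was higher in A clones. In that fit 11 of the 63 detected genes (17.5%), those above the filter included, were called, against 11.8% of all 23383 genes with a count (6.89% higher and 4.89% lower). The share among all genes below the filter was not determined. The 6 called below the filter were TIMP4, ADAMTS17 (log2 fold change 3.84, adjusted p = 0.00875), MMP12 (2.78, adjusted p = 0.0126), MMP1 (3.76, adjusted p = 0.0162), MMP17 (1.69, adjusted p = 0.0368) and MMP3 (2.77, adjusted p = 0.0385). The highest count of ADAMTS17 was 194, in A clone 22-11, and that of MMP17 was 35, in the same clone. MMP9, a gelatinase typical of leukocytes, had counts in 4 A clones and in no N clone, at least 2.22-fold higher in A by the same floor, with 29 counts in clone 22-11 and 27 in clone 23-14. The macrophage marker CSF1R was likewise low and ran from 0.476 to 2.38 CPM in A clones and from 0 to 0.255 CPM in N clones. The pan-leukocyte gene PTPRC had 8 counts in all clones together, 7 of them in A clone 22-11 and the rest in N clone 20-15. The part of leukocytes in MMP9 and MMP12 was not tested. ADAM22, ADAMTS16 and MMP8 had counts only in A clones, at levels under the floor. The other 10 genes below the filter, ADAM23, ADAM32, ADAMTS8, ADAMTS13, ADAMTS18, ADAMTS19, ADAMTSL2, MMP20, MMP24 and MMP27, had at most 37 counts in a clone.

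Of the 10 ADAM genes tested, ADAM33 alone passed, and it was lower in A clones. ADAM33, an ADAM of mesenchymal cells first known from asthma genetics, had lowest, median and highest levels of 39.1, 77.5 and 164 CPM in A clones and of 44.2, 179.6 and 283 CPM in N clones. The groups overlapped, although 6 N clones lay above every A clone, and all 10 A clones lay below the N median. Means were 84.6 ± 37.0 CPM and 177.6 ± 85.4 CPM, a log2 fold change of -1.04 ± 0.31 (adjusted p = 0.0284), or 2.05-fold higher in N. The sign was negative in all 4 animals. The call was lost without A clone 17-57 or 20-106 or N clone 17-23, 20-15 or 23-22 (adjusted p from 0.0563 to 0.0587), and it was kept without 22-5 and 22-9 (adjusted p = 0.0131).

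The main sheddases did not pass. ADAM17, which releases tumour necrosis factor and ligands of the epidermal growth factor receptor, had levels of 67.5, 75.7 and 114 CPM as lowest, median and highest in A clones and of 65.9, 77.5 and 107 CPM in N clones. Its log2 difference was -0.0036 ± 0.097 (adjusted p = 0.982), and its sign turned with DESeq2 size factors. ADAM10, which cuts Notch and other receptors, ranged from 124 to 241 CPM in A clones and from 123 to 171 CPM in N clones, with a log2 difference of 0.10 ± 0.10 (adjusted p = 0.489). ADAM12, a marker of mesenchymal progenitors that binds and cuts growth factor-binding proteins, had levels of 52.8, 184 and 278 CPM in A clones and of 16.3, 99.8 and 268 CPM in N clones. Its log2 difference was 0.65 ± 0.40 (adjusted p = 0.250), positive in 3 animals and negative in animal 17.

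A further 2 ADAMs reached an unadjusted p under 0.05 without passing. ADAM19 was positive at 0.77 ± 0.33 (adjusted p = 0.104), and ADAM9 negative at -0.43 ± 0.19 (adjusted p = 0.108). ADAM8, ADAM11, ADAM15 and ADAM20 had log2 differences from -0.18 to 0.23. In all, 16 of the 41 genes had an unadjusted p under 0.05, and the 34 that were not called ranged from -0.94 to 1.52 on the log2 scale, 24 positive and 10 negative.

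Within animals, TIMP1 and TIMP3 were higher in A clones and ADAMTS15 and ADAM33 lower in all 4 animals. ADAMTS14, ADAMTS4 and MMP15 were higher in 3 animals and had the opposite sign in animal 17, which contributed a single clone of each kind. In animal 22 the differences in mean log2 CPM were 4.24 for ADAMTS14, 1.81 for TIMP3, 1.73 for ADAMTS4, 0.57 for MMP15, -0.74 for ADAM33 and -1.34 for ADAMTS15. In animal 23 they were 3.22, 2.69, 0.62, 1.23, -0.76 and -2.30 in the same order. A dependence of the A against N difference on the animal was tested as an interaction in animals 22 and 23 (16 clones). In these clones 41 genes passed the filter, MMP1 among them in place of ADAM11. With edgeR 0 of them were called, against 0.031% of all 12915 genes tested, and DESeq2 also called 0. An unadjusted p under 0.05 was found for 7 of them (17.1%), against 9.06% of all genes. The smallest unadjusted p was that of ADAM9, 0.00446, with an interaction of 0.78 ± 0.23 on the log2 scale (animal 23 minus animal 22, adjusted p = 0.333).

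**Figure D5:**
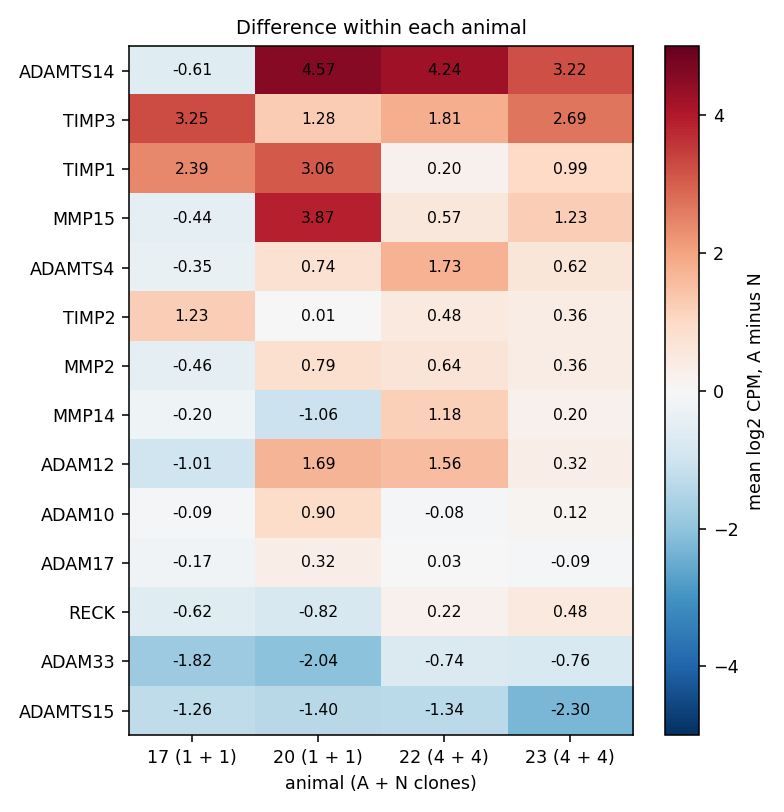
Difference in mean log2 CPM (A minus N) within each animal for 14 of the genes, with the number of A and N clones under each animal. TIMP1, TIMP3 and TIMP2 are positive and ADAM33 and ADAMTS15 negative in every animal, and ADAMTS14 ranges from -0.61 in animal 17 to 4.57 in animal 20.

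Clones of the same group differed widely in these genes. The median SD of log2 CPM over the 41 tested genes was 0.75 in A clones and 0.93 in N clones, against 0.336 and 0.376 over all genes tested. The SD was larger in N clones for 25 of the 41, against 61.9% of all genes. N clones varied most in ADAMTS9, ADAMTS2 and ADAMTS12, with SDs of 2.89, 2.34 and 2.30. ADAMTS2 was lowest in N clone 22-5 and highest in N clone 20-15.

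A separate list of 63 genes, called regulators below, held genes that process, activate, clear or control these enzymes. It also held astacins, other zinc peptidases, and substrates and secretion factors of ADAMTS enzymes. Of the 63, 60 were in the table and 43 were tested. Of these 11 were higher and 3 lower in A clones, together 32.6% against 20.6% of all genes tested. The median log2 difference over the 43 was 0.41. The list was chosen with earlier results of these data known, so neither this share nor those of its parts below are read as an excess. Among 13 genes for maturation and shedding, 4 were higher, against 10.3% of all genes tested. They included RHBDF2, which carries ADAM17 to the cell surface and was at 37.96 to 143 CPM in A clones and 16.0 to 62.4 CPM in N clones (log2 fold change 1.36 ± 0.30, adjusted p = 0.00677), and TSPAN15, a tetraspanin partner of ADAM10 at 1.67 to 36.4 CPM in A clones and 0 to 8.82 CPM in N clones (3.19 ± 0.89, adjusted p = 0.0197). ADAM17 and ADAM10 themselves were not called.

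Of 5 genes of the plasminogen system, whose product plasmin activates several MMPs, 3 were higher, against 10.3% of all genes tested. The urokinase gene PLAU was not called, and its log2 difference was negative. PLAUR, the urokinase receptor, ranged from 47.7 to 550 CPM in A clones and from 2.60 to 95.5 CPM in N clones (2.44 ± 0.52, adjusted p = 0.00513). BMP1, an astacin proteinase that removes the carboxy-terminal propeptide of procollagens, ranged from 241 to 511 CPM in A clones and from 107 to 270 CPM in N clones. For BMP1, 9 A clones exceeded every N clone (1.04 ± 0.14, adjusted p = 0.000476). PAPPA, a zinc proteinase that cuts IGF-binding proteins, was also higher (1.98 ± 0.33, adjusted p = 0.00153).

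Of the 10 transcriptional regulators on the list, the AP-1 members FOS, JUN and JUND were lower in A clones and none was higher. Of all genes tested, 10.3% were called lower. FOS ranged from 10.0 to 233 CPM in A clones and from 140 to 768 CPM in N clones (-2.54 ± 0.47, adjusted p = 0.00251). JUN ranged from 66.2 to 186 CPM in A clones and from 194 to 373 CPM in N clones, so the groups did not overlap (-1.12 ± 0.18, adjusted p = 0.00134). The groups were likewise apart for POFUT2, another listed gene, which was higher in A clones. Such separation was seen in 0.318% of all genes tested. None of the 7 tested genes for clearance and broad inhibition passed. Without the clones of animal 23, 1 of the tested regulators was called.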

How the data were processed

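RNA sequencing libraries of 10 A and 10 N clones were grouped by their labels. The authors deposited raw counts per gene. Per the labels' processing notes they used bcl2fastq 2.20, Trimmomatic 0.36, STAR 2.5.2b and featureCounts of Subread 1.5.2 with the ARS-UCD1.2 build. A row without a gene name held 0.113% to 0.333% of counts and was left out.

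Counts were tested with edgeR 4.0.16 in R 4.3.3 (default filter on low counts, TMM normalization, robust quasi-likelihood F test, two-sided, animal as block) across all 12900 genes passing the filter, with Benjamini-Hochberg adjustment. A gene was called at an adjusted p under 0.05. SE is the absolute log2 fold change divided by the square root of F. Levels are CPM scaled by TMM factors, log2 CPM used a prior count of 2, and animals were compared by differences of mean log2 CPM. CPM is not corrected for gene length, so levels of different genes are not compared per length. Shares of counts, sums over families and words such as low or dominated describe counts only.

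The pairing by animal comes from the labels. As a check, A and N clones of 1 animal deviated together from the means of their groups with r of 0.253 (17), 0.193 (20), 0.241 (22) and 0.440 (23). No libraries held the same values, and the closest pair differed by a mean absolute log2 difference of 0.239 over genes.

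The genes, the marker and regulator lists and the tests were chosen with earlier results of these data known. Levels by clone are given for genes called and for TIMP1 to TIMP4, RECK, MMP2, MMP14, ADAM10, ADAM12 and ADAM17. Regulators with values were those called with at least 2-fold change, except 1 that is not reported here. Other genes named with values were chosen after values were seen. Gene order and overlaps came from RefSeq (ARS-UCD2.0), in which all 68 symbols matched and 14 genes overlapped another protein-coding gene. Sequences and coordinates were not used here.

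Alternatives were no block, other size factors, other filters, DESeq2 1.42.0, limma-voom (limma 3.58.1) with animal as a random effect, sums per animal, single animals, and each animal or clone left out. The fit without clones 22-5 and 22-9, and all alternatives for the regulators, were added after seeing the data. The edgeR fits of A against N and of the interaction, DESeq2 and limma-voom were tested on simulated counts, in which DESeq2 made more false calls than edgeR.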

Additional observations from a re-analysis of the deposited data

Results flagged for a closer look

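Levels of each of the 41 tested genes were examined in the 10 A and the 10 N clones for a clone far from the rest, by the gap to the nearest clone divided by the range of the group, both in log2 CPM (Dixon's test). Of 82 groups, 13 had such a clone, and in each it was the lowest clone. About 4.1 would be expected for independent groups of normally distributed values. Log2 CPM of low counts need not be so distributed, and the share over all genes tested was not determined. The number is therefore not read as particular to these genes.

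Of the 13, 4 were in A clone 17-57. MMP16 had 0 counts there while the next A clone had 8.60 CPM (gap 0.704). ADAMTSL3 was at 0.341 CPM against 9.37 CPM (gap 0.594), ADAMTS3 at 0.885 against 4.63 CPM (gap 0.505), and ADAMTS14 at 0 against 2.07 CPM (gap 0.505).

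In A clone 20-106, MMP19 was at 7.99 CPM against 23.4 CPM in the next A clone (gap 0.521) and ADAMTS9 at 1.27 against 7.98 CPM (gap 0.475). In N clone 20-15, ADAMTS9 was at 0 against 7.96 CPM in the next N clone (gap 0.564) and ADAMTS7 at 11.8 against 29.6 CPM (gap 0.502).

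ADAMTSL4 was low in A clone 22-121, at 15.7 against 36.2 CPM (gap 0.554), and in N clone 22-5, at 7.28 against 28.5 CPM (gap 0.566). RECK was at 9.69 CPM in A clone 23-14 against 15.4 CPM in the next (gap 0.644). MMP11 was at 5.90 CPM in A clone 23-108 against 13.3 CPM (gap 0.554), and ADAMTS4 at 4.72 CPM in A clone 22-16 against 8.56 CPM (gap 0.519). The cause of these low values was not tested.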

How the results depend on the processing

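The 7 genes called became 6 with no replicate block, where ADAMTS4 was lost and the other 6 were kept, 11 without the filter on low counts, where 5 of the 7 were shared and MMP15 and TIMP1 were lost, 11 with DESeq2 and the block, which added MMP2, MMP11, MMP19 and TIMP2 to the 7, 4 without animal 22, 1 in animal 23 alone, and 0 without animal 23, in animal 22 alone and with counts summed per animal. In these last 3 fits 8, 12 and 8 genes had an unadjusted p under 0.05. Leaving out 1 clone gave 3 to 10 called, with 4 without N clone 22-9 or 23-23 or A clone 22-27 and 3 without N clone 23-22 or A clone 23-14. The 5 called at 2-fold became 10 without the filter, 3 without animal 20, 1 in animal 23 alone, and 0 without animal 23, in animal 22 alone and with summed counts, and ranged from 2 to 7 when 1 clone was left out. The 14 regulators called became 1 without animal 23, 5 and 8 in animals 22 and 23 alone, and 0 with summed counts. The smaller fits hold fewer clones, or in the summed fit 4 pairs. Without animal 23 few of all genes tested were called either, as given above. The shares of all genes called in the other fits are not given here. The changes in number are therefore not read as particular to these genes. The log2 difference of ADAM10 was -0.085 in animal 22 alone, and that of MMP14 -0.053 without animal 22. ADAM17 turned positive with DESeq2 size factors (0.0070), at least 10 counts (0.013), DESeq2 with the block (0.0073) or without it (0.0022), without animal 17 (0.015) or 23 (0.047), in animal 22 alone (0.030) and with summed counts (0.052), and ranged from -0.056 to 0.030 when 1 clone was left out. RECK turned positive with limma-voom (0.12), without animal 17 (0.044), 20 (0.065) or 22 (0.0097) and in animal 23 alone (0.37), and ranged from -0.13 to 0.11. The cause of these changes was not tested. Leaving out a clone of animal 17 or 20 leaves its partner without weight in the blocked fit. Depth limits the 22 genes below the filter.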
